A study of Mus musculus with 16 samples.

Results

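Ribosome footprints (RPF), short pieces of mRNA kept from nuclease digestion by the ribosome that sits on them, were compared between leukaemic cells of mice fed a diet without valine (0 g/kg) and of mice fed a control diet with 8 g/kg valine. The comparison rests on 4 of the 16 libraries of the study, 2 per diet. Genes were taken into the test when their mean level over the 8 RPF libraries reached 20 FPKM, the reads of a gene per kilobase of its length, scaled to the total of its library. This rule kept 3036 of 12012 genes, or 25.3%. Pxn, at 20 FPKM, was the last gene inside it and Abcb9, at 19.99 FPKM, the first outside.

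All mice were C57BL/6 and carried secondary transplants of a NOTCH-delta E tumour, a leukaemia of immature T cells (T-ALL) in which an activated Notch receptor drives growth. After 3 weeks on the diets the leukaemic cells were sorted from the spleen by their GFP signal, and total RNA and RPF libraries were made from them. Valine is given here per kg of diet, as in the sample characteristics, although the treatment protocol also speaks of valine in the drinking water of the intermediate groups (0.4 and 0.8). Each diet had 1 library from T-ALL 2 and 1 from T-ALL 3, and the labels do not say whether these numbers stand for tumours, recipient mice or both, so the p-values below measure only the spread between these samples.

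Valine is an essential branched-chain amino acid, so cells must take it up. When an amino acid runs short, uncharged tRNA activates the kinase GCN2, which phosphorylates the initiation factor eIF2, lowers general initiation and raises translation of the transcription factor ATF4, whose targets include amino acid transporters, tRNA synthetases and enzymes of serine and asparagine synthesis. The title of the study joins valine to complex I, the NADH dehydrogenase of the respiratory chain, which is built from subunits made on cytosolic ribosomes and subunits encoded by mitochondrial DNA (mtDNA) and made inside the mitochondrion. The comparison asks which mRNAs carried more or fewer ribosomes when dietary valine was absent.

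The footprint libraries were shallow, and depth differed with diet. Reads recovered from the FPKM values numbered 80367 (T-ALL 2) and 79154 (T-ALL 3) at 0 g/kg, against 41848 (T-ALL 2) and 71432 (T-ALL 3) at 8 g/kg. The median tested gene had 11 reads in each valine-free library, against 6 (T-ALL 2) and 10 (T-ALL 3) in the controls. A listed 0 allows up to 3 reads, which is 0.00373% and 0.00379% of the libraries at 0 g/kg and 0.00717% and 0.0042% of those at 8 g/kg, counting error only. Across genes, log2(FPKM + 5) correlated with a Pearson r of 0.729 between the 2 libraries at 0 g/kg and 0.723 between the 2 at 8 g/kg. Between libraries of different diets r lay between 0.700 and 0.744, so by this measure libraries of one diet were no more alike than libraries of different diets.

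Marker genes of other blood cells differed between the libraries, although the cells had been sorted by GFP. Of the neutrophil markers, 6 of 15 in the table passed the filter (S100a8, S100a9, Mpo, Elane, Ctsg and Ngp), and in the control libraries 5 of the 6 had 0 reads. The whole list took 29.6 (T-ALL 2) and 3.79 (T-ALL 3) of 10000 RPF reads at 0 g/kg, against 0.239 and 0.84 at 8 g/kg. The valine-free T-ALL 2 library thus stood apart from the other 3, and without it 5 of these 6 markers would have failed the filter. Erythroid markers took 0.871 and 2.53 per 10000 at 0 g/kg, against 4.78 and 17.8 at 8 g/kg, most of them globin reads in the T-ALL 3 control. Macrophage markers took 4.36 and 1.01 at 0 g/kg and 1.19 and 4.90 at 8 g/kg, with overlap, and B cell markers 1.62 and 1.39 at 0 g/kg and 0 and 0.84 at 8 g/kg. Platelet markers took 0.871 and 1.77 at 0 g/kg against 0.478 and 0.70 at 8 g/kg, without overlap, and natural killer cell and stromal lists overlapped. The T cell identity list, which marks the leukaemia's own lineage, took 105 and 100 per 10000 at 0 g/kg and 96.3 and 114 at 8 g/kg. The part of the other cells in the results below was not tested, so values without the valine-free T-ALL 2 library or the T-ALL 3 control are given for lists that moved, and in bulk libraries fewer cells of a type and less RNA per cell cannot be told apart.

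No gene passed the test between 0 and 8 g/kg. limma, with Benjamini-Hochberg adjustment over all 3036 genes and diet as a factor over the 8 RPF libraries, called 0 genes (0%), and the lowest adjusted p was 0.131, for Hspa1a. Without adjustment 190 genes (6.26%) had a p under 0.05, of which 85 were higher (2.8%) and 105 lower (3.46%) at 0 g/kg. By limma's voom on the recovered reads the count called was 0 as well, with 113 under 0.05. The direction alone was split, with 50.6% of genes higher and 49.4% lower. In 463 genes (15.3%) both libraries at 0 g/kg were above both at 8 g/kg, and in 490 (16.1%) both were below. The median log2 change over all genes was 0.01. The genes and groups that follow are therefore described by their values, and words such as higher and lower refer to those values and not to a passed test.

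Among genes with higher footprints at 0 g/kg, the heat-inducible chaperone gene Hspa1a led. Hspa1a had 221 (T-ALL 2) and 287 (T-ALL 3) FPKM at 0 g/kg, against 14.2 and 4.16 FPKM at 8 g/kg, on 59 and 77 reads against 2 and 1. Both libraries without valine were far above both controls, a log2 change of 4.27 ± 0.66 (SE of the limma fit, adjusted p = 0.131), and the ratio of pooled reads, scaled for depth, was 32.3 with a 95% counting interval of 10.8 to 158. Over the 4 diets Hspa1a was lower at each higher valine content in both T-ALLs. T-ALL 2 had 221, 49.6, 33.7 and 14.2 FPKM at 0, 0.4, 0.8 and 8 g/kg, and T-ALL 3 had 287, 230, 25.5 and 4.16 FPKM. Total RNA of Hspa1a was higher at 0 g/kg as well, with a log2 change of 3.83 (limma, adjusted p = 0.0799). The difference between the fractions was 0.44 for Hspa1a (limma, adjusted p = 0.989). Its neighbour Hspa1l, a testis-type relative of the same family, had 35.9 and 71.6 FPKM at 0 g/kg and 0 reads in both controls, at least 5.69-fold higher against 3 reads over the group (limma, adjusted p = 0.641). Hspa1l would have failed the filter without the libraries at 0 g/kg. In total RNA its log2 change was 2.63 (limma, adjusted p = 0.108). Hspa1a lies on chromosome 17 from 34969359 to 34972156 and Hspa1l on the same chromosome from 34972703 to 34979228 (GRCm38.p6). Reads of this family may not be assigned uniquely, so each single member is uncertain.

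Several other genes were higher at 0 g/kg with no overlap between the diets. Ckb, the brain-type creatine kinase that buffers ATP, had 143 and 82.3 FPKM at 0 g/kg against 28.5 and 8.35 FPKM at 8 g/kg, on 30 against 3 reads (ratio 7.12, counting interval 2.21 to 36.4). Wdr74, a factor in maturation of the large ribosomal subunit, had 46.1 and 156 FPKM at 0 g/kg against 17.5 and 20.5 FPKM at 8 g/kg, on 22 against 3 reads (ratio 5.22, interval 1.57 to 27.2). Rpl7a, a protein of the large ribosomal subunit, had 245 and 148 FPKM at 0 g/kg against 60.6 and 71 FPKM at 8 g/kg, a log2 change of 1.47 ± 0.43. The adjusted p by limma was 0.451 for Ckb and 0.641 for Wdr74 and for Rpl7a. In total RNA Ckb pointed the same way, with a log2 change of 1.87 (limma, adjusted p = 0.577). Rpl7a pointed the other way there, with a log2 change of -0.15, and Wdr74 stood at -0.07. The uncharacterised genes Gm17571 and 4933415A04Rik had log2 changes of 2.91 ± 0.59 and 3.29 ± 0.86, the second of them on 54 against 7 reads and the first on 23 against 2 (ratio 8.18, interval 2.02 to 71.6).

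The neutrophil calcium-binding genes S100a9 and S100a8 completed the higher side. S100a9 had 1091 and 107 FPKM at 0 g/kg and 0 reads in both controls, at least 13.3-fold higher (limma, adjusted p = 0.211). S100a8 had 713 and 200 FPKM at 0 g/kg against 0 and 49.6 FPKM at 8 g/kg, on 41 against 2 reads (ratio 14.6, interval 3.79 to 125). Both genes were highest in the valine-free T-ALL 2 library, where S100a9 alone had 51 reads. Mpo, the myeloperoxidase of neutrophil granules, had 254 FPKM in that library, 8.04 FPKM in the valine-free T-ALL 3 library and 0 reads in both controls.

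**Figure D1:**
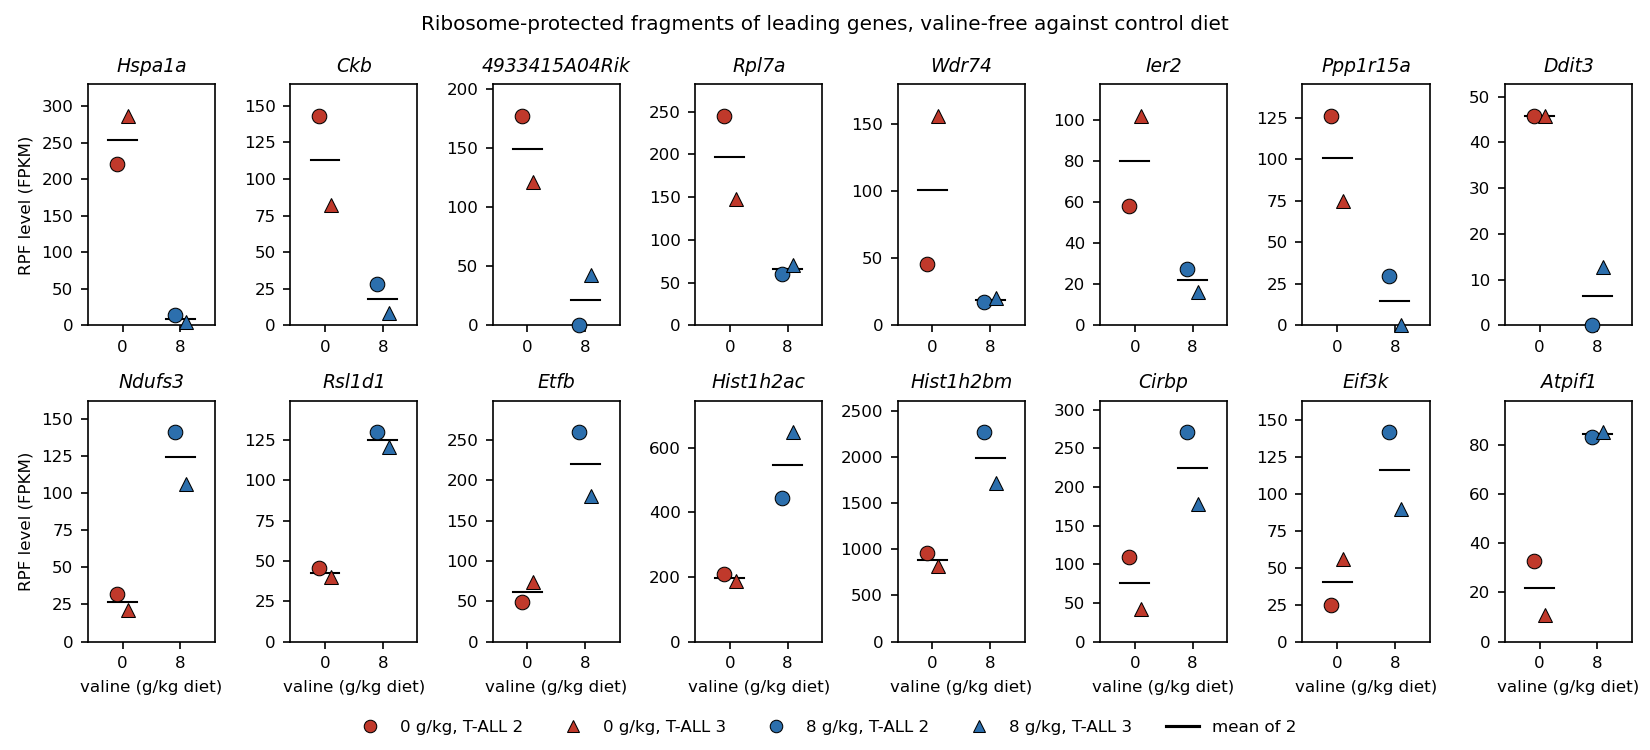
RPF level (FPKM, linear axes from 0) of 16 genes in the 2 libraries at 0 g/kg (red, left) and the 2 at 8 g/kg valine (blue, right), circles T-ALL 2 and triangles T-ALL 3, with the mean of each pair as a line. In the upper row both libraries at 0 g/kg lie above both at 8 g/kg, as in Hspa1a with 221 and 287 FPKM against 14.2 and 4.16, and in the lower row they lie below, as in Ndufs3 with 31.8 and 21.1 FPKM against 141 and 106.

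On the lower side the leading gene among those with at least 20 reads over the 4 libraries was Ndufs3, a core subunit of complex I. Genes such as Hist1h2bp, Mrpl38, Mrpl27 and Hist2h2ab were lower with a smaller unadjusted p by limma, on fewer reads. Ndufs3 had 31.8 and 21.1 FPKM at 0 g/kg, against 141 and 106 FPKM at 8 g/kg, on 5 against 16 reads. The change was alike in both T-ALLs, -1.99 and -2.09 on the log2 scale, and the fit gave -2.04 ± 0.52 (limma, adjusted p = 0.503). Total RNA of Ndufs3 did not share it, with a log2 change of 0.14, and the difference between the fractions was -2.18 (limma, adjusted p = 0.624). Etfb, the beta subunit of the flavoprotein that passes electrons from fatty acid and amino acid oxidation to the respiratory chain, had 49.7 and 74.3 FPKM at 0 g/kg against 260 and 180 FPKM at 8 g/kg. Its log2 change was -1.75 ± 0.51 (limma, adjusted p = 0.641), beside -0.34 in total RNA.

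Other leading genes on this side were Rsl1d1, Cirbp and Eif3k and, on few reads or with most reads in 1 library, Gm10094 and the globins. Rsl1d1, a nucleolar protein, had 45.7 and 39.8 FPKM at 0 g/kg against 130 and 121 FPKM at 8 g/kg, a log2 change of -1.45 ± 0.38. Cirbp, the cold-inducible RNA-binding protein, had 109 and 41.9 FPKM at 0 g/kg against 271 and 178 FPKM at 8 g/kg. Eif3k, a subunit of initiation factor eIF3, had 24.9 and 55.9 FPKM at 0 g/kg against 142 and 90 FPKM at 8 g/kg. By limma the adjusted p was 0.515 for Rsl1d1 and 0.716 for Cirbp and Eif3k. Gm10094 had a log2 change of -2.95 ± 0.77 on 5 against 26 reads. The globins Hbb-bs and Hba-a2, at -2.25 ± 0.57 and -4.36 ± 1.36, rested on 13 against 55 and on 9 against 71 reads, of which the T-ALL 3 control held 46 and 64. Ndufs3 lies on chromosome 2 from 90894627 to 90904721, Etfb on chromosome 7 from 43444072 to 43457800, Rsl1d1 on chromosome 16 from 11193037 to 11203292 and Cirbp on chromosome 10 from 80165990 to 80172786 (GRCm38.p6).

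Within the respiratory chain, footprints on mtDNA-encoded mRNAs and on nuclear mRNAs lay on opposite sides. Of the 13 mtDNA-encoded subunits 11 were higher and 2 lower at 0 g/kg, with a median log2 change of 0.74 beside 0.01 for all genes, and 1 of 13 (mt-Nd4) was higher at an unadjusted p under 0.05, beside 2.8% of all genes. Of 31 nuclear complex I subunits that passed the filter, of 36 in the table, 11 were higher and 20 lower, with a median of -0.44. Nuclear subunits of ATP synthase had 2 higher and 13 lower of 15, with a median of -0.42, and those of complexes II to IV had 7 higher and 17 lower of 24, with a median of -0.25 that was -0.49 without the valine-free T-ALL 2 library and -0.05 with the filter at a mean of 10 reads. None of these members passed the adjusted test. Both the mtDNA-encoded and the ATP synthase medians kept their side in each T-ALL, at 0.81 (T-ALL 2) and 0.34 (T-ALL 3) for mtDNA and -0.25 and -0.64 for ATP synthase. The complex I median did not, at 0.06 in T-ALL 2 and -0.56 in T-ALL 3. Without the T-ALL 3 control it was -0.12, and with reads thinned to equal depth -0.15. The ATP synthase median moved to -0.91 without the valine-free T-ALL 2 library, to -0.13 without the valine-free T-ALL 3 library and to -0.84 without the T-ALL 3 control.

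Among the mtDNA-encoded genes, mt-Co1, the catalytic subunit of cytochrome oxidase, had 1609 and 1102 FPKM at 0 g/kg against 737 and 863 FPKM at 8 g/kg. It held 378 against 162 reads, the most of the 13, and its log2 change was 0.74 ± 0.36 (limma, adjusted p = 0.897). mt-Nd4, a proton-pumping subunit of complex I, had 266 and 185 FPKM at 0 g/kg against 61.2 and 143 FPKM at 8 g/kg, a log2 change of 1.19 ± 0.52 (adjusted p = 0.79). mt-Nd1, another membrane subunit of complex I, had 383 and 335 FPKM at 0 g/kg against 264 and 206 FPKM at 8 g/kg. In these 3 genes both libraries without valine were above both controls. The diets overlapped in mt-Atp6, with 1989 and 1007 FPKM at 0 g/kg and 1269 and 1432 at 8 g/kg, and in mt-Nd5, with 353 and 188 FPKM at 0 g/kg and 428 and 338 at 8 g/kg. The summed share of the mtDNA-encoded genes was 111 (T-ALL 2) and 71.4 (T-ALL 3) of 10000 reads at 0 g/kg, against 63.3 and 66.4 at 8 g/kg. The valine-free T-ALL 2 library therefore held most of the difference, and it is also the library with the high neutrophil share, whose part in this was not tested. Without it the median of the 13 was 0.32, with 8 higher and 5 lower. In total RNA the same genes had a median of 0.15 and shares of 342 and 302 against 317 and 304 per 10000, with overlap.

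The nuclear complex I subunits varied widely. Ndufs7, an iron-sulphur subunit, had 0 and 56.3 FPKM at 0 g/kg against 150 and 75.3 FPKM at 8 g/kg, on 5 against 13 reads, and its log2 change of -2.67 ± 0.93 came mostly from T-ALL 2 (-4.96, with -0.39 in T-ALL 3). Ndufs1, the largest subunit, pointed the other way, with 50.1 and 37.4 FPKM at 0 g/kg against 15.8 and 23.2 FPKM at 8 g/kg and a log2 change of 1.0 ± 0.46 (limma, adjusted p = 0.826). Ndufv1, which binds NADH, had 73.5 and 66.6 FPKM at 0 g/kg against 102 and 81.7 FPKM at 8 g/kg, a log2 change of -0.36 ± 0.39. Ndufb8 and Ndufa1, accessory subunits, overlapped between the diets, at -0.10 ± 0.73 and 0.12 ± 0.47. The list took 24.5 and 18.4 of 10000 reads at 0 g/kg and 27.2 and 28.3 at 8 g/kg. The 15 complex I assembly factors in the table were all below the filter.

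Among ATP synthase genes Atpif1, the inhibitor of its reverse reaction, had 32.8 and 10.9 FPKM at 0 g/kg against 83.2 and 85.2 FPKM at 8 g/kg, a log2 change of -1.86 ± 0.64 on 4 against 11 reads. Atp5o, a stalk subunit, had 59.6 and 59.3 FPKM at 0 g/kg against 113 and 119 FPKM at 8 g/kg, a log2 change of -0.91 ± 0.40 (limma, adjusted p = 0.79). The catalytic subunit Atp5b, with the most reads of the list, overlapped between the diets at 608 and 520 FPKM against 484 and 812 FPKM. In cytochrome oxidase Cox7a2 had a log2 change of -1.10 ± 0.49 and Cox6b1 one of 0.90 ± 0.49.

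**Figure D2:**
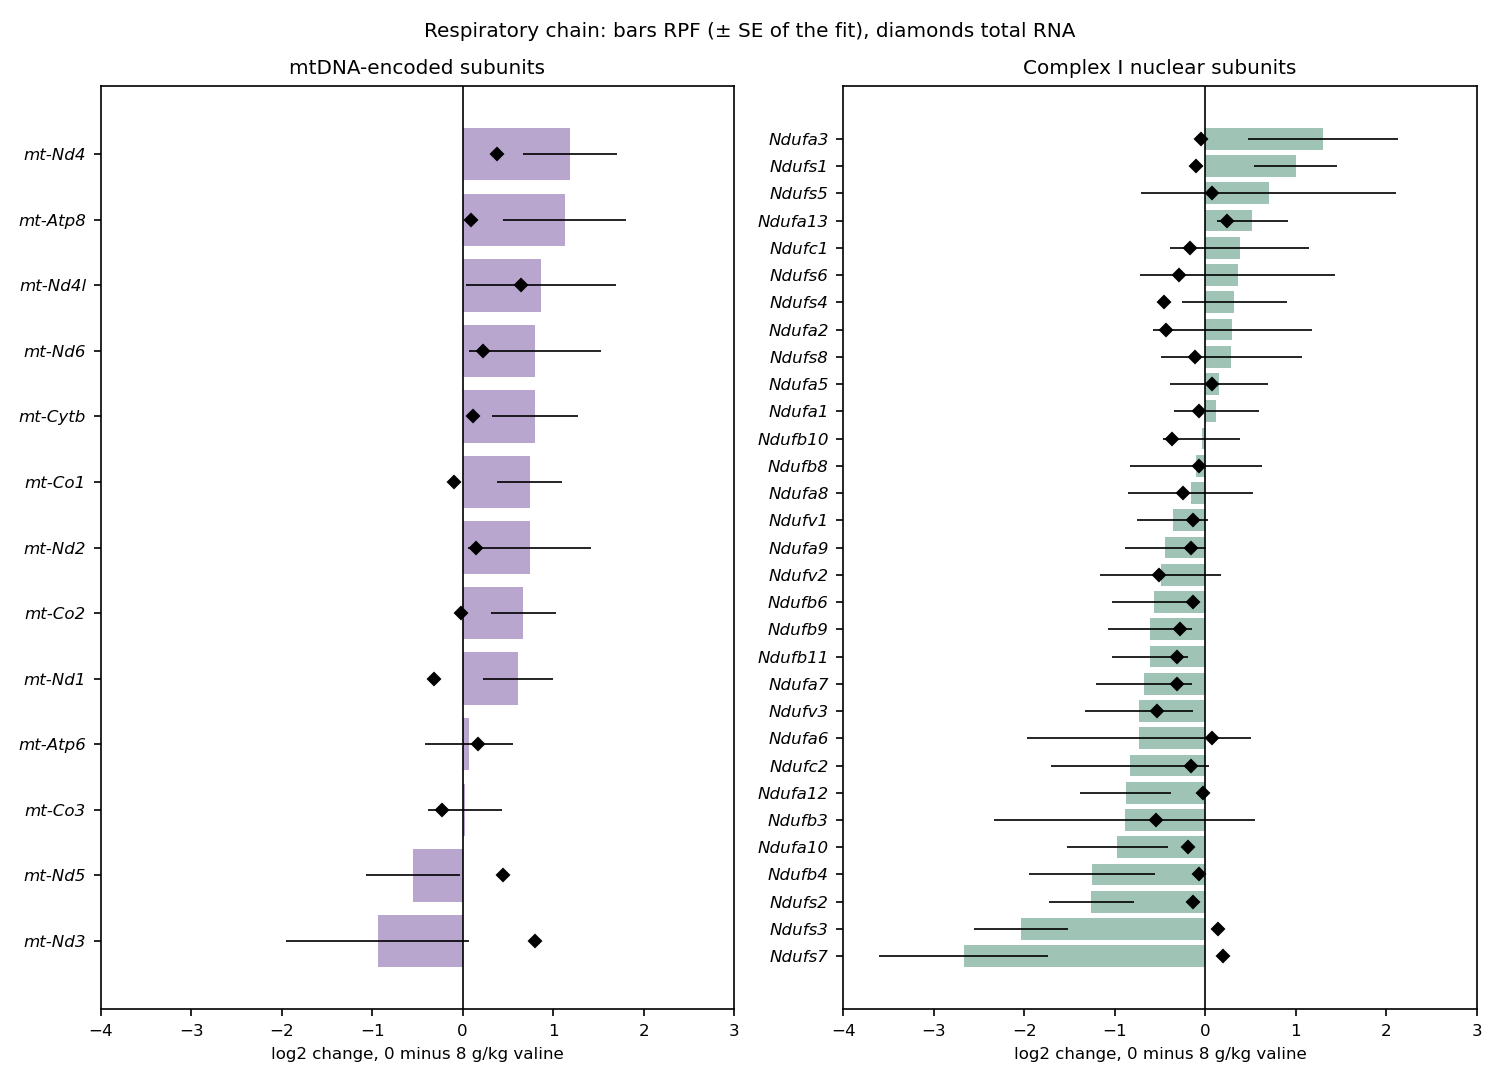
Log2 change (FPKM + 5, 0 minus 8 g/kg valine) of the 13 mtDNA-encoded subunits (left) and the 31 tested nuclear complex I subunits (right). Bars are RPF with the SE of the fit over 8 libraries and diamonds are total RNA of the same gene. Of the mtDNA-encoded bars 11 point to the right, up to 1.19 in mt-Nd4, and 20 of the nuclear bars point to the left, down to -2.67 in Ndufs7.

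Genes of the amino acid response carried more footprints at 0 g/kg. Of 31 ATF4 and amino acid response genes, 15 passed the filter, and 13 of these were higher and 2 lower, with a median log2 change of 0.48. Of the 15, 4 had an unadjusted p under 0.05, all higher (Ddit3, Ppp1r15a, Atf5 and Aars), where 2.8% of all genes did, and 8 were above both controls in both libraries, where 15.3% of all genes were. The filter averages all 8 RPF libraries, those at 0 g/kg included, so a gene can pass through its level there. Ppp1r15a would have failed the filter without the libraries at 0 g/kg. The share of the list was 48.0 (T-ALL 2) and 48.6 (T-ALL 3) of 10000 reads at 0 g/kg, against 31.1 and 34.2 at 8 g/kg, with no overlap. Its median was 0.72 in T-ALL 2 and 0.84 in T-ALL 3. With 1 library left out the median ran from 0.38 to 0.74, the latter without the T-ALL 3 control. It was 0.39 on 11 members with the filter at a mean of 10 reads, and 0.80 with reads thinned to equal depth. Without the valine-free T-ALL 2 library 12 of 15 were higher. In total RNA the median was 0.65 with 14 of 15 higher, beside 41.9% of all genes, and for the difference between the fractions it was 0.03.

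The members with the smallest unadjusted p by limma were Ddit3 and Ppp1r15a. Ppp1r15a, also called GADD34, which brings a phosphatase to eIF2, had 126 and 74.8 FPKM at 0 g/kg against 30 and 0 FPKM at 8 g/kg, on 51 against 4 reads, a log2 change of 2.95 ± 0.92 (limma, adjusted p = 0.697). Its footprints stood at 15 and 27 FPKM at 0.4 g/kg and at 15.3 and 2.99 FPKM at 0.8 g/kg. Total RNA of Ppp1r15a pointed the same way, with a log2 change of 1.94 (limma, adjusted p = 0.107). Ddit3, the transcription factor CHOP, had 45.8 and 45.7 FPKM at 0 g/kg against 0 and 12.7 FPKM at 8 g/kg, on 8 against 1 reads (ratio 5.69, interval 0.763 to 253). Atf4 itself overlapped between the diets, with 83.7 and 103 FPKM at 0 g/kg and 48.9 and 129 at 8 g/kg, a log2 change of 0.20 ± 0.51. Among enzymes of serine and one-carbon metabolism Phgdh had 311 and 415 FPKM at 0 g/kg against 245 and 300 FPKM at 8 g/kg, while Psat1 and Shmt2 overlapped. Asns, the asparagine synthetase, was below the filter and had 9 and 2 reads at 0 g/kg, against 1 and 0 in the controls (ratio 7.83, interval 1.14 to 337). Pck2, a mitochondrial carboxykinase, was also below it, with 7 and 5 reads against 2 and 2.

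The cytosolic tRNA synthetases, which load amino acids onto tRNA, had 14 of 20 tested members higher and a median of 0.18. The medians of the T-ALLs differed, at 0.57 in T-ALL 2 and -0.02 in T-ALL 3, and leaving out 1 library moved the pooled median to between 0.01 (without the T-ALL 2 control) and 0.53 (without the valine-free T-ALL 3 library). Yars, the tyrosyl enzyme, had 68.7 and 60.8 FPKM at 0 g/kg against 14.5 and 17 FPKM at 8 g/kg, a log2 change of 1.75 ± 0.57 on 34 against 6 reads (limma, adjusted p = 0.716). Aars, the alanyl enzyme, had 75.3 and 96.2 FPKM at 0 g/kg against 33 and 42.9 FPKM at 8 g/kg, a log2 change of 1.08 ± 0.39 that was 1.08 in each T-ALL. Vars, the valyl enzyme, overlapped between the diets at 180 and 334 FPKM against 178 and 316 FPKM, a log2 change of 0.04 ± 0.43. Gars and Eprs, the glycyl and the glutamyl-prolyl enzyme, overlapped as well, at -0.11 ± 0.37 and 0.21 ± 0.46.

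ATF4 pairs with C/EBP proteins at composite sites of the form TGATGNAA, and the promoter windows of RefSeq (250 bases before to 50 after the transcript start, GRCm38.p6) were searched for it on both strands. It occurred in 4.51% of 27025 genes with a window, and in 5 of the 14 synthetases with one (Aars, Gars, Iars, Tars and Yars). The stretches of Asns, Aars and Gars are shown because each holds a match to this form while their footprints differ, with Aars higher and Gars overlapping. Capitals mark the match, which in Aars and Gars reads on the opposite strand. The stretch of Asns spans chr6:7693210-7693277 on the minus strand, that of Aars chr8:111033685-111033784 on the plus strand and that of Gars chr6:55037926-55038000 on the plus strand.
Asns: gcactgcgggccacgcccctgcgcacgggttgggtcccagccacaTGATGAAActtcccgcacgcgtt
Aars: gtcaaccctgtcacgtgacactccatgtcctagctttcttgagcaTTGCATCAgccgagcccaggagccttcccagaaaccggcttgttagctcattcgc
Gars: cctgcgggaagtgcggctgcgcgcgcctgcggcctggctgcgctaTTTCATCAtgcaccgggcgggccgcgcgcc
The match begins 23 bases before the transcript start in Asns, 112 in Aars and 30 in Gars. The transcript start used for Aars lies inside the gene, which spans chr8:111027778-111055569, so its stretch is not from the first start of the gene. Of the 14 tested ATF4-list genes with a window only Aars held it, and a match of letters is a description and not a site.

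Transporters and enzymes of branched-chain amino acids were split in direction, with 6 higher and 6 lower of 12 tested and a median of -0.02. Without the T-ALL 3 control 9 were higher and 3 lower, with a median of 0.22. Slc7a5, the light chain of the transporter that imports valine and leucine, had 60 and 81.8 FPKM at 0 g/kg against 48 and 42.1 FPKM at 8 g/kg, a log2 change of 0.59 ± 0.40 (limma, adjusted p = 0.933). Its heavy chain Slc3a2 overlapped between the diets at 0.39 ± 0.49. Slc38a2, a sodium-coupled transporter of small neutral amino acids, had 36 and 55 FPKM at 0 g/kg against 18.2 and 29.3 FPKM at 8 g/kg, with log2 changes of 0.82 and 0.80 in the T-ALLs. The glutamine transporter Slc1a5 stood at -0.27 ± 0.39 and overlapped. Bcat1, the cytosolic transaminase of branched-chain amino acids, was below the filter with 4 and 4 reads in the valine-free libraries and 2 and 1 in the controls.

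Histones made during DNA replication, which wrap the new copy into chromatin, carried fewer footprints at 0 g/kg. Of 56 tested histone genes 49 were lower and 7 higher, with a median log2 change of -0.73, and 22 of them had an unadjusted p under 0.05, all lower, beside 3.46% of all genes. In 35 both libraries at 0 g/kg were below both controls, beside 16.1% of all genes. Histones took 500 (T-ALL 2) and 441 (T-ALL 3) of 10000 reads at 0 g/kg, against 736 and 809 at 8 g/kg. The difference was larger in T-ALL 3, with a median of -1.0 and 1 gene higher, than in T-ALL 2, with -0.39 and 20 genes higher. Total RNA pointed the same way, with a median of -0.51 and 54 of 56 lower, beside 58.1% of all genes. Without the T-ALL 3 control 42 of 56 were lower in RPF, with a median of -0.55. Histone genes are near copies of one another and each gene's count is uncertain, so the members are not independent.

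The 2 histone mRNAs with the most reads showed the difference in every library. Hist1h3f had 5603 and 5243 FPKM at 0 g/kg against 10193 and 10450 FPKM at 8 g/kg, a log2 change of -0.93 ± 0.34 on 830 against 1128 reads (limma, adjusted p = 0.725). Hist1h4j had 4633 and 5344 FPKM at 0 g/kg against 8798 and 8196 FPKM at 8 g/kg. In both genes the spread within a diet was small beside the gap between diets. The linker histone Hist1h1b was less even, with 4975 and 3394 FPKM at 0 g/kg against 5902 and 7508 FPKM at 8 g/kg. Hist1h2bp had the lowest p of the list, at an adjusted p of 0.196, but rests on 1 against 10 reads (ratio 0.0712, interval 0.00164 to 0.5). Hist1h2ac and Hist1h2bm stood at -1.42 ± 0.41 and -1.15 ± 0.36, and H2afx, the variant phosphorylated at DNA breaks, at -1.15 ± 0.45.

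Other cell cycle genes were spread over both directions. DNA replication genes had 13 higher and 11 lower of 24 and a median of 0.12, with 0.68 in T-ALL 2 and -0.19 in T-ALL 3, and -0.06 without the valine-free T-ALL 2 library. Pcna, the replication clamp, had 417 and 255 FPKM at 0 g/kg against 208 and 244 FPKM at 8 g/kg. In total RNA 21 of the 24 DNA replication genes were higher, beside 41.9% of all genes, with a median of 0.17. For 14 of them both total RNA libraries at 0 g/kg were above both controls, beside 15.8% of all genes. Mitosis genes had 11 higher and 16 lower of 27 and a median of -0.20, which was 0.05 without the T-ALL 3 control. Cdc20, which activates the anaphase ubiquitin ligase, had 68.1 and 80.2 FPKM at 0 g/kg against 118 and 186 FPKM at 8 g/kg, a log2 change of -0.95 ± 0.46 (limma, adjusted p = 0.874). In total RNA its log2 change was -1.03.

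Glycolysis genes were lower at 0 g/kg in 12 of 13 cases, with a median of -0.54. Gapdh, which makes the first NADH of the pathway, had 462 and 323 FPKM at 0 g/kg against 596 and 743 FPKM at 8 g/kg, a log2 change of -0.78 ± 0.34 (limma, adjusted p = 0.79). Pkm, pyruvate kinase, had 959 and 741 FPKM at 0 g/kg against 1543 and 979 FPKM at 8 g/kg, and Eno1, enolase, 208 and 300 FPKM against 333 and 414 FPKM. In these 3 genes both libraries at 0 g/kg were below both controls, which held for 7 of the 13, beside 16.1% of all genes. The exception in direction was Pfkl, a subunit of phosphofructokinase, with 80.4 and 41.5 FPKM at 0 g/kg against 28.3 and 29.8 FPKM at 8 g/kg. Without either library that stood apart 10 of 13 were lower. The share of the list was 76.6 and 63.0 of 10000 reads at 0 g/kg against 103 and 97.7 at 8 g/kg. It was higher at each higher valine content in each T-ALL, which was not tested, at 76.6, 82.1, 85.2 and 103 in T-ALL 2 and 63.0, 66.5, 80.4 and 97.7 in T-ALL 3 for 0, 0.4, 0.8 and 8 g/kg. In total RNA the median was -0.16.

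Enzymes of the tricarboxylic acid cycle had a median of -0.12 with 6 higher and 9 lower of 15, and of -0.27 without the T-ALL 3 control and 0.02 without the valine-free T-ALL 3 library. Fh1, fumarate hydratase, had 37.9 and 33.6 FPKM at 0 g/kg against 72 and 65.6 FPKM at 8 g/kg, and Ogdh, of the 2-oxoglutarate dehydrogenase complex, had 145 and 137 FPKM at 0 g/kg against 76.6 and 123 FPKM at 8 g/kg. The 2 enzymes thus pointed in opposite directions, with no overlap in either. Of 6 tested cholesterol synthesis genes 5 were lower, with a median of -0.38 that ran from -0.70 (without the valine-free T-ALL 2 library) to -0.09 (without the valine-free T-ALL 3 library). Srebf2, the transcription factor of that pathway, had 44.5 and 66.5 FPKM at 0 g/kg against 97.2 and 76.7 FPKM at 8 g/kg.

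**Figure D3:**
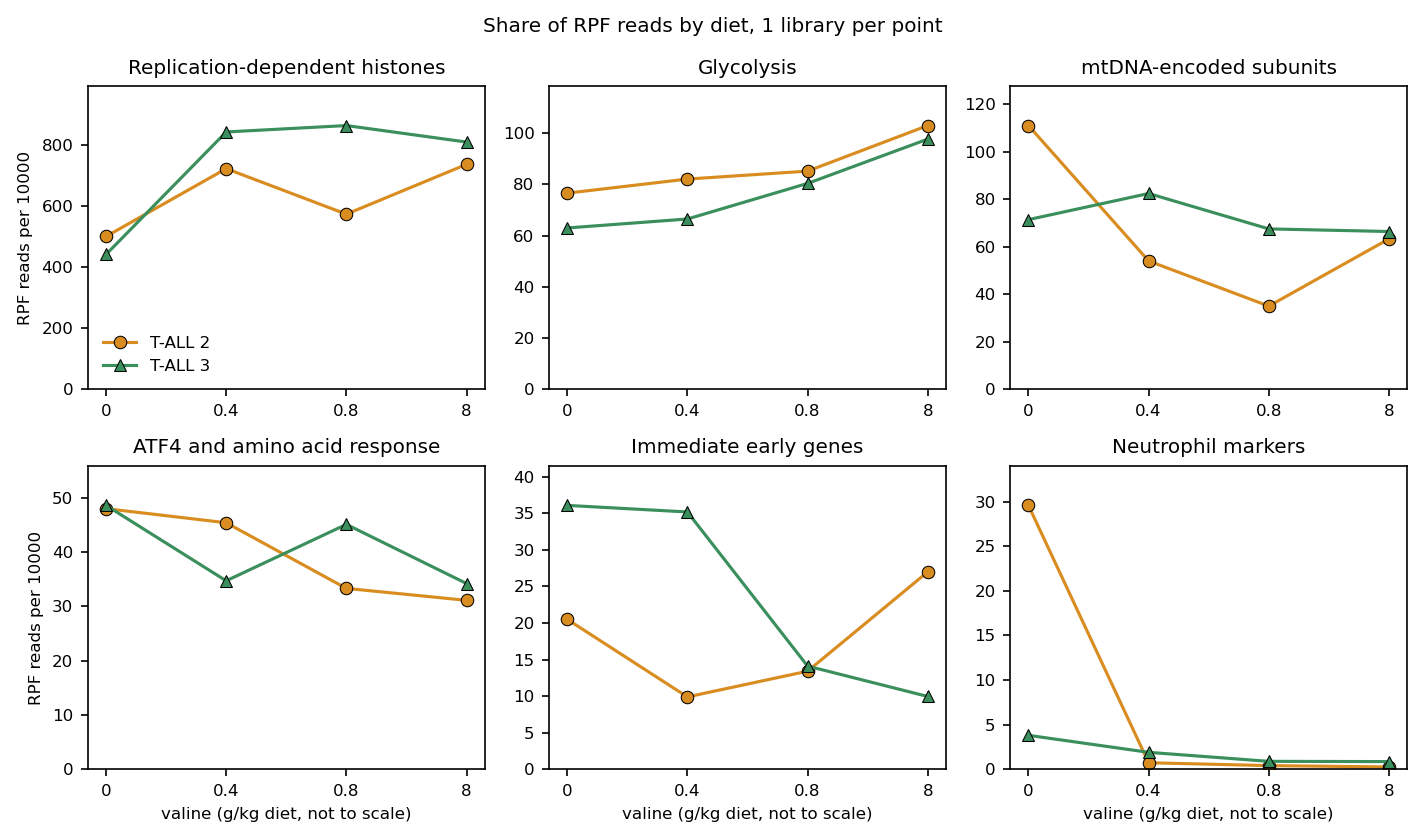
Summed RPF reads of 6 gene lists per 10000 reads of the library, at 0, 0.4, 0.8 and 8 g/kg valine (diets evenly spaced, not to scale), with T-ALL 2 as circles and T-ALL 3 as triangles, 1 library per point. Glycolysis is higher at each higher valine content in both lines, histones are lowest at 0 g/kg in both (500 and 441), and neutrophil markers peak at 29.6 in the valine-free T-ALL 2 library.

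List medians of the translation machinery lay near 0. Cytosolic ribosomal proteins had 32 higher and 44 lower of 76 and a median of -0.13, with -0.26 in T-ALL 2 and 0.15 in T-ALL 3, and 0.08 without the T-ALL 2 control. Rplp0, of the ribosomal stalk, overlapped between the diets at 2076 and 3103 FPKM against 2468 and 1845 FPKM, and Rpl34 had 99.1 and 144 FPKM at 0 g/kg against 257 and 281 FPKM at 8 g/kg. Many ribosomal protein genes have processed copies in the genome, so single members are uncertain. Initiation and elongation factors had 16 on each side of 32 and a median of 0.01. Eef1a1, which brings charged tRNA to the ribosome, and Eef2, which moves it along, overlapped between the diets at -0.20 ± 0.32 and -0.23 ± 0.31. Eif3i had 43 and 14.3 FPKM at 0 g/kg against 72.6 and 74.4 FPKM at 8 g/kg, a log2 change of -1.37 ± 0.48 (limma, adjusted p = 0.725).

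Mitochondrial ribosomal proteins had 15 higher and 19 lower of 34 and a median of -0.13, which moved to -0.52 without the valine-free T-ALL 2 library and to 0.34 without the valine-free T-ALL 3 library, and single members lay far out on few reads. Mrpl38 had 0 and 7.84 FPKM at 0 g/kg against 89.7 and 52.5 FPKM at 8 g/kg, on 1 against 12 reads (ratio 0.0593, interval 0.00139 to 0.401). Mrpl38 would have failed the filter without the libraries at 8 g/kg. Mrpl27 had 0 reads in the valine-free libraries and 4 in the controls, at least 1.87-fold lower, and Mrpl24 pointed up with 108 and 66.1 FPKM at 0 g/kg against 47.2 and 27.7 FPKM at 8 g/kg. Nucleolar genes of ribosome biogenesis had 8 higher and 14 lower of 22 and a median of -0.22, which was -0.14 without the T-ALL 3 control. Npm1, nucleophosmin, had 252 and 210 FPKM at 0 g/kg against 452 and 287 FPKM at 8 g/kg, a log2 change of -0.64 ± 0.39. The proteasome, which degrades ubiquitinated proteins, had 13 higher and 20 lower of 33 and a median of -0.25, with 0.19 in T-ALL 2 and -0.56 in T-ALL 3, and 0.06 without the valine-free T-ALL 3 library. Psmc4, an ATPase of its cap, had 47.2 and 47 FPKM at 0 g/kg against 89.6 and 105 FPKM at 8 g/kg (limma, adjusted p = 0.759).

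Chaperones as a list lay on both sides of 0 beside Hspa1a. Of 21 heat shock and cytosolic chaperone genes 13 were higher and 8 lower, with a median of 0.09, which lay between -0.29 (without the T-ALL 2 control) and 0.41 (without the T-ALL 3 control). The constitutive Hspa8 had 608 and 592 FPKM at 0 g/kg against 494 and 586 FPKM at 8 g/kg, a log2 change of 0.16 ± 0.31, and Hsp90ab1 had 1026 and 1137 FPKM at 0 g/kg against 1129 and 1460 FPKM at 8 g/kg, a log2 change of -0.25 ± 0.32. Endoplasmic reticulum stress genes had 10 higher and 3 lower of 13 and a median of 0.22. Without the T-ALL 3 control 8 were higher and 5 lower, and with 1 library left out the median lay between 0.11 (without the T-ALL 2 control) and 0.37 (without the valine-free T-ALL 3 library). Hspa5, the chaperone BiP of the reticulum, had 305 and 238 FPKM at 0 g/kg against 138 and 218 FPKM at 8 g/kg, and Hsp90b1 had 141 and 110 FPKM against 45.8 and 95.8 FPKM. Neither pair overlapped (limma, adjusted p = 0.929 for Hspa5 and 0.912 for Hsp90b1).

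Immediate early genes, which cells switch on within minutes of a stimulus or of handling, had 11 higher and 3 lower of 14 and a median of 0.62, but the T-ALLs differed. The median was -0.42 with 5 of 14 higher in T-ALL 2, and 1.74 with 14 of 14 higher in T-ALL 3. The share was 20.5 (T-ALL 2) and 36.1 (T-ALL 3) of 10000 reads at 0 g/kg, against 27.0 and 9.94 at 8 g/kg. Without the T-ALL 3 control, the lowest of the 4, the median was 0.12 with 8 of 14 higher, without the valine-free T-ALL 3 library it was 0.10, and without the valine-free T-ALL 2 library 1.13. Ier2 was higher in both, with 58.3 and 102 FPKM at 0 g/kg against 27.7 and 16.2 FPKM at 8 g/kg, a log2 change of 1.64 ± 0.49 (limma, adjusted p = 0.641). Dusp5, a phosphatase of the kinase ERK, had 26.9 and 93.9 FPKM at 0 g/kg against 8.53 and 4.99 FPKM at 8 g/kg, on 27 against 2 reads (ratio 9.61, interval 2.41 to 83.4). Dusp5 would have failed the filter without the libraries at 0 g/kg. Klf2 pointed in opposite directions in the T-ALLs, with 48.1 and 144 FPKM at 0 g/kg against 274 and 46.8 FPKM at 8 g/kg. In total RNA all 14 genes of the list were higher at 0 g/kg, beside 41.9% of all genes, with a median of 0.82. For 11 of the 14 both total RNA libraries at 0 g/kg were above both controls, beside 15.8% of all genes. The total RNA share was 14.9 (T-ALL 2) and 21.2 (T-ALL 3) of 10000 reads at 0 g/kg, against 11.1 and 7.28 at 8 g/kg.

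The Notch pathway drives this leukaemia. Of 8 tested Notch targets 2 were higher and 6 lower, with a median of -0.30 that was -0.11 without the valine-free T-ALL 2 library. Notch1, the gene of the receptor, had 482 and 570 FPKM at 0 g/kg against 529 and 779 FPKM at 8 g/kg, on 901 against 837 reads, a log2 change of -0.29 ± 0.37. Myc, the growth-promoting target, had 316 and 259 FPKM at 0 g/kg against 362 and 351 FPKM at 8 g/kg, a log2 change of -0.31 ± 0.36 (limma, adjusted p = 0.969). Its total RNA had a log2 change of -0.77 (limma, adjusted p = 0.125). Hes1, a repressor that Notch induces, overlapped between the diets, with 310 FPKM in T-ALL 2 and 97.9 FPKM in T-ALL 3 at 0 g/kg and 115 and 84.1 FPKM at 8 g/kg, a log2 change of 0.80 ± 0.52. T cell identity genes had 9 higher and 13 lower of 22 and a median of -0.02. Without the T-ALL 3 control 13 were higher and 9 lower, with a median of 0.07. Cd3e, of the T cell receptor complex, had 394 and 362 FPKM at 0 g/kg and 367 and 782 at 8 g/kg, and Gata3, a T cell transcription factor, 207 and 169 FPKM at 0 g/kg against 131 and 88.3 FPKM at 8 g/kg.

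**Figure D4:**
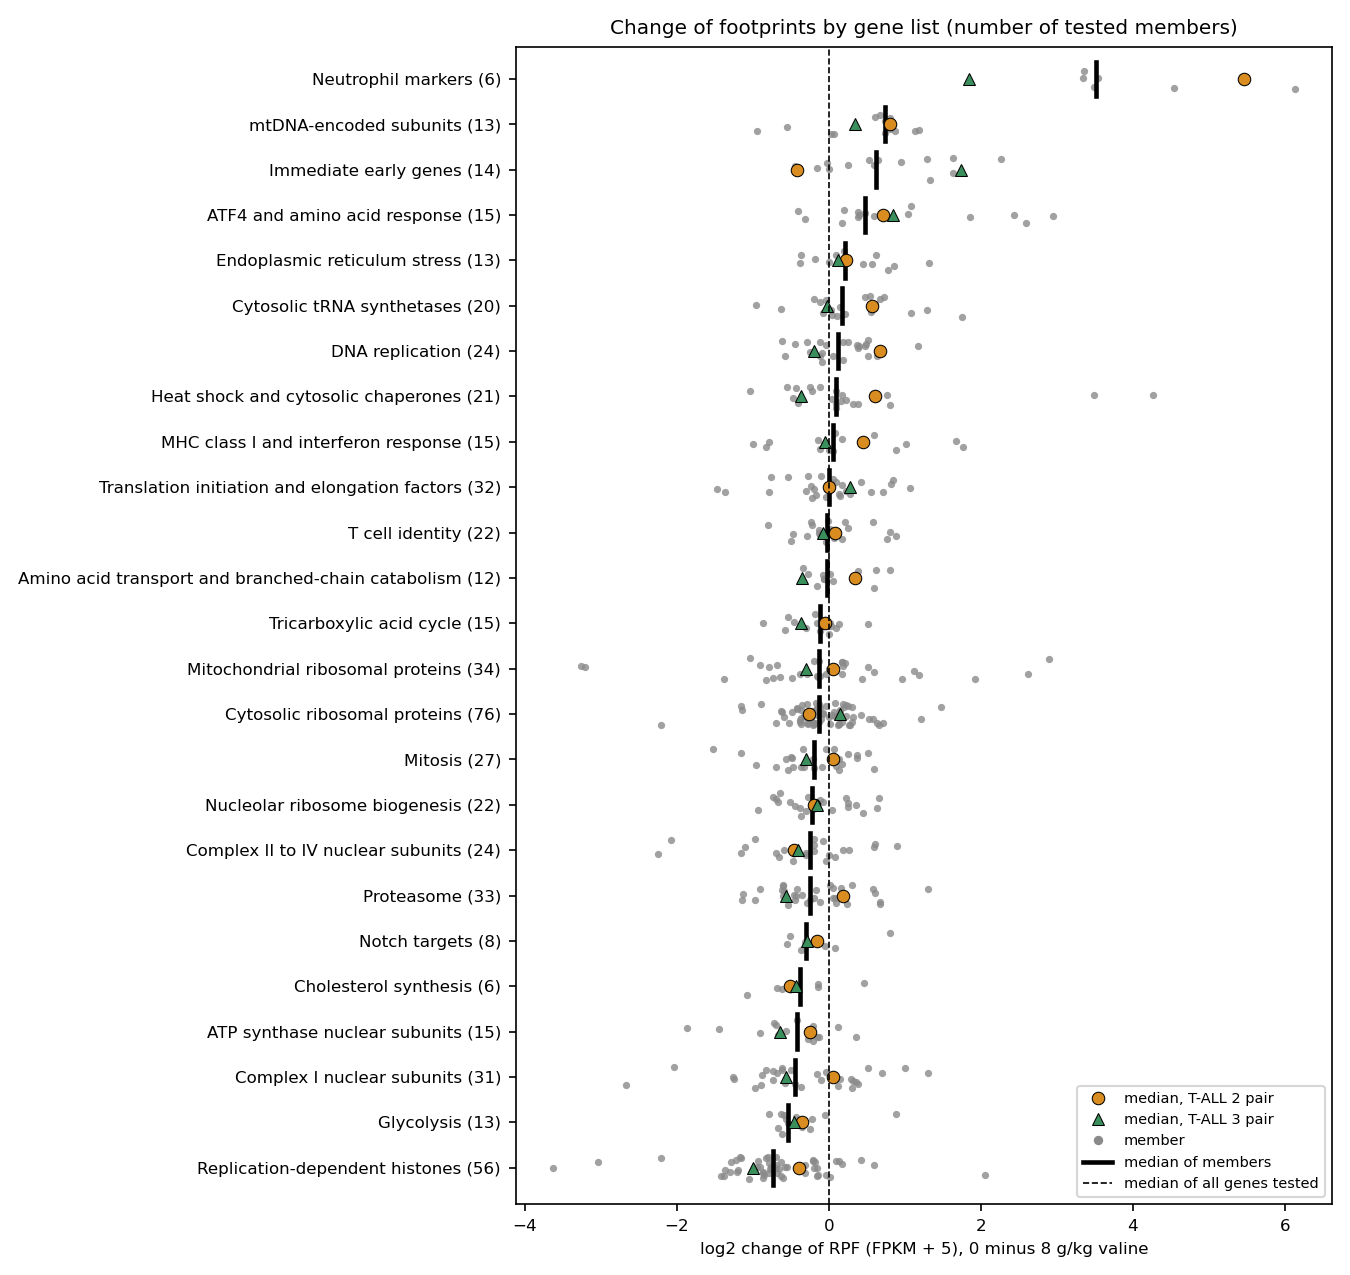
RPF log2 change (FPKM + 5, 0 minus 8 g/kg valine) of the tested members of 25 gene lists (grey points), with the median of the members (bar), the medians of the T-ALL 2 and T-ALL 3 pairs (circles and triangles) and the median of all genes (dashed). Neutrophil markers lie at 3.52, of which 5 of 6 would fail the filter without the valine-free T-ALL 2 library and 5 have 0 reads in the controls (2.83 with those at their bound and 1.99 without that library). Histones lie at -0.73, and the T-ALL medians lie on opposite sides of 0 for immediate early genes (-0.42 and 1.74).

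Total RNA from the same cells was set beside the footprints. There limma called 0 of the 3036 genes (0%). Hbb-bs came nearest at an adjusted p of 0.0714, and 283 genes (9.32%) had an unadjusted p under 0.05, with 101 higher (3.33%) and 182 lower (5.99%). Subtracting the total RNA log2 value from that of RPF in each T-ALL and diet gave 0 calls by limma (0%) and no adjusted p below 0.27. Without adjustment 148 genes (4.87%) were under 0.05, 78 with a higher (2.57%) and 70 with a lower (2.31%) difference. The median of this difference was 0.05 over all genes, of which 53.8% lay above and 46.2% below 0. It was 0.59 for mtDNA-encoded subunits with 10 of 13 above 0 and 0.30 for tRNA synthetases with 14 of 20 above 0. For nucleolar genes it was -0.33 with 14 of 22 below 0, and for glycolysis -0.30 with 11 of 13 below 0. It was -0.20 for nuclear complex I subunits with 17 of 31 below 0, and -0.18 for histones with 39 of 56 below 0. The mtDNA-encoded, synthetase, nucleolar and glycolysis lists had no member at an unadjusted p under 0.05 by limma. Nuclear complex I subunits had 0 higher and 2 lower of 31, and histones 2 higher and 2 lower of 56, beside 2.57% higher and 2.31% lower of all genes. For single genes limma gave a difference of 2.97 for S100a9 (adjusted p = 0.934), 1.62 for Rpl7a (adjusted p = 0.934), -2.18 for Ndufs3 (adjusted p = 0.624) and -3.13 for Mrpl38 (adjusted p = 0.498). Mrpl38 passed the filter only through its level at 8 g/kg. None of these genes was past the test, so RPF and total RNA changes were not shown to differ for any gene.

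**Figure D5:**
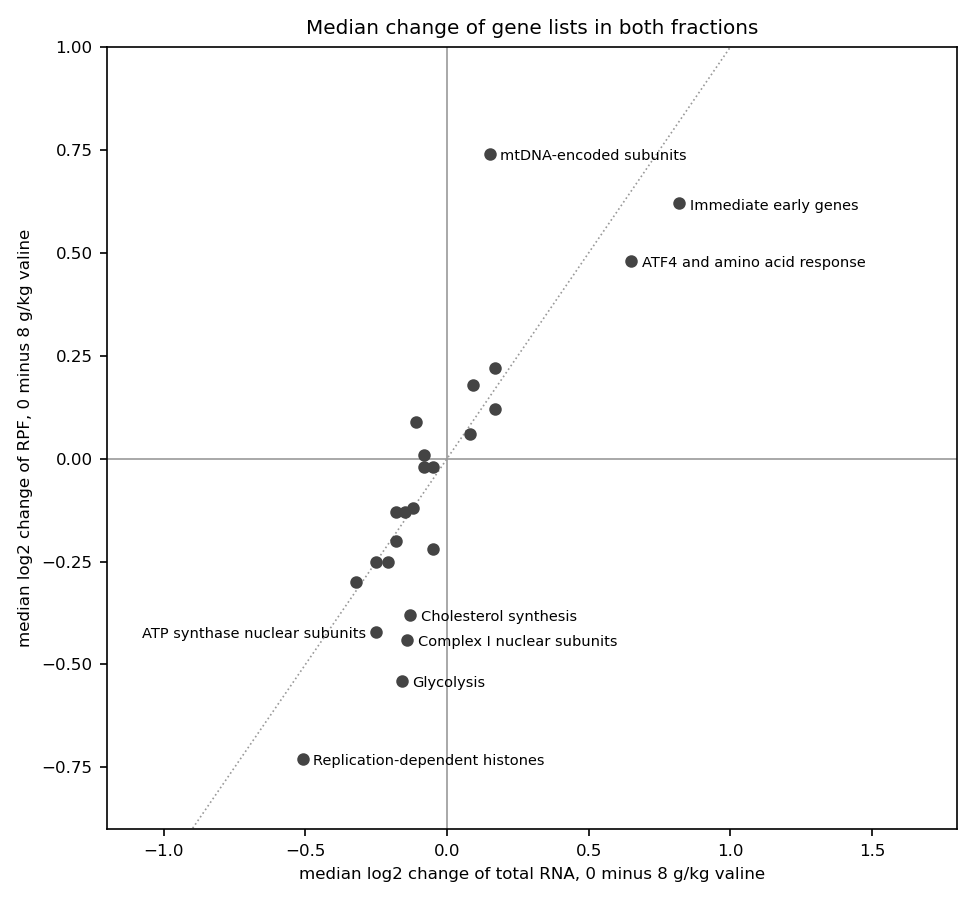
Median log2 change of RPF (vertical) against that of total RNA (horizontal), 0 minus 8 g/kg valine, 1 point per gene list with at least 5 tested members, without the neutrophil markers. The dotted line marks equal change. The mtDNA-encoded subunits lie above it (0.74 against 0.15) and glycolysis below it (-0.54 against -0.16).

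The partial diets gave a further set of values. The difference between 0 g/kg and the mean of 0.4 and 0.8 g/kg, which uses no control library, gave 0 calls by limma (0%), a lowest adjusted p of 0.52, and 146 genes (4.81%) at an unadjusted p under 0.05, with 37 higher (1.22%) and 109 lower (3.59%). The median over all genes was -0.09. It was -0.84 for histones, with 55 of 56 lower at 0 g/kg beside 57.1% of all genes, and -0.67 for mitosis genes, with 26 of 27 lower. For mtDNA-encoded subunits it was 0.60, for the ATF4 list 0.23, for immediate early genes 0.66 with 13 of 14 higher, and for tRNA synthetases -0.26. Both comparisons share the libraries at 0 g/kg. Hspa1a had a log2 change of 2.04 ± 0.57 against the partial diets (limma, adjusted p = 0.874).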

How the data were processed

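The deposited values are FPKM for 12012 genes in 16 libraries, 1 column per library. Per the submitters' processing notes the builds were mm10 and GRCm38, and the tools were edgeR 3.14.0, STAR 2.5.0c, Bowtie2 2.3.4 and cutadapt 1.18. What each tool did, how reads were counted and how genes were filtered is not given in the sources used here. Whole reads were recovered from the steps of the deposited FPKM, with all 149988 values above 0 within 0.005 reads of a whole number. Recovery and fit were also run on simulated data. The counts simulated for the fit held no differences between the T-ALLs, so they do not measure its error in these libraries.

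Genes with a mean of at least 20 FPKM over the 8 RPF libraries were fitted as log2(FPKM + 5) with limma 3.58.1 in R 4.3.3, with diet as a factor over the 8 libraries of a fraction. Variance moderation followed the trend with expression and tests were two-sided, with Benjamini-Hochberg adjustment at 0.05 over all 3036 genes. The pseudocount of 5 was taken because 1 read is worth several FPKM in the shallow libraries. A fold on this scale understates the change of low genes. Total RNA, RPF minus total RNA, and 0 g/kg against the mean of 0.4 and 0.8 g/kg were fitted in the same way. Every SE of a log2 change is that of these fits, over 8 libraries.

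Folds against a group with 0 reads are bounds against 3 reads over the group. Where a group had 1 to 3 reads, the ratio of pooled reads carries an exact 95% interval, which covers counting error only, since PCR copies are not independent molecules. Promoter sequences and gene positions are from RefSeq (GRCm38.p6).

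Genes were named by rule: up to 10 per direction by smallest p among those with no overlap between the diets, at least 20 reads over the 4 libraries and a log2 change of 1 or more in size, then 3 members per list by level and 2 by p, and a fixed set. Atf5, Iars, Tars, Elane, Ctsg, Ngp and the genes called only under an alternative were named after their values were seen. Members and lists were chosen with earlier results of these data known. Alternatives were other pseudocounts, filters, scalings and tests, thinning to equal depth, the T-ALL number as a block and each library left out. List counts without the libraries that stood apart were added after seeing the data.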

Additional observations from a re-analysis of the deposited data

Results flagged for a closer look

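In 3 gene lists the median RPF log2 change (0 minus 8 g/kg) lay on opposite sides of 0 in the T-ALLs by at least 0.3 in each. Each T-ALL has 1 pair of libraries, and the difference between the T-ALLs was not tested. Immediate early genes had -0.42 in T-ALL 2 and 1.74 in T-ALL 3. Heat shock and cytosolic chaperone genes had 0.61 in T-ALL 2 and -0.36 in T-ALL 3, although Hspa1a was higher at 0 g/kg in both. Amino acid transport and branched-chain catabolism genes had 0.35 in T-ALL 2 and -0.35 in T-ALL 3.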

How the results depend on the processing

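The count of 0 genes called held under every pseudocount (0.5, 1 and 20), the filter at a mean of 1 FPKM, the 4 libraries alone, limma's voom and centring. It became 26 with no filter (23 higher and 3 lower of 12012 genes), 1 with a filter at a mean of 10 reads (Hspa1a, limma adjusted p = 0.0221), 1 with reads thinned to equal depth (Chchd1, lower), and 0 to 3 with 1 library left out. Those were Hba-a2, Hist1h3b and Ndufs7 without the valine-free T-ALL 3 library, Gm6594 without the T-ALL 2 control and 4933415A04Rik without the T-ALL 3 control. The adjusted p of Hspa1a is 0.131 in the reported fit. The 190 genes at an unadjusted p under 0.05 became 640 at a mean of 1 FPKM and 760 with no filter, where more genes were tested, 124 at a mean of 10 reads, 113 by voom, and 174 to 266 with 1 library left out. Total RNA at a pseudocount of 0.5 gave 1 call, Hbb-bs. With the T-ALL number as a replicate block 0 genes were called in all 4 comparisons, with 198 at an unadjusted p under 0.05 and a lowest adjusted p of 0.0641 for RPF. Deviations of same-numbered libraries correlated across genes at 0.15 to 0.17 among 0, 0.4 and 0.8 g/kg and at -0.07 to 0.07 with 8 g/kg, so the pairing was not settled. Of 100 named genes 83 kept their direction under each of the 15 alternatives that gave them a value. Where a gene had no overlap between the diets, a rule by which some were named, most alternatives could not turn its direction. These include leaving out a library and changing the pseudocount or the filter, so this count does not measure how firm the directions are. Thinning turned Ndufa13 to -0.15 and Klf2 to 0.70. With 1 library left out the log2 change ran from -0.42 to 0.56 for mt-Atp6, -0.59 to 0.65 for mt-Co3, -0.24 to 0.47 for Ndufa1, -1.06 to 0.87 for Ndufb8, -0.53 to 0.21 for Atp5b, -0.24 to 0.75 for Cox6a1, -0.45 to 0.86 for Atf4, -0.15 to 0.93 for Psat1, -0.39 to 0.48 for Vars, -0.34 to 0.13 for Gars, -0.18 to 0.61 for Eprs, -1.65 to 0.78 for Klf2, -0.04 to 0.54 for Rplp0, -0.54 to 0.14 for Eef1a1, -0.01 to 1.61 for Hes1 and -1.04 to 0.04 for Cd3e. Of 372 list medians 328 moved by less than the spread between the T-ALLs. That spread is the SD of the 2 T-ALL medians of the list, so lists whose T-ALLs differ most were allowed the largest moves. The count therefore does not measure how stable the medians are. The cause of these shifts was not tested. Medians of the cholesterol, mitochondrial ribosome and neutrophil lists could not be given with the filter on reads, and a comparison with the valine content of the proteins was not run. The median tested gene had 6 to 11 reads per library, which limits the precision of single genes.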
